A study of Mus musculus with 8 samples.

Results

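The acute-phase proteins described here are the products of 10 genes, *Hp*, *Lcn2*, *Orm1*, *Orm2*, *Orm3*, *Saa3*, *Lrg1*, *Cp*, *C3* and *Hpx*, found by their symbols among the 41325 gene symbols of each library. They were selected on values of these same libraries, so the levels and changes below describe the genes and are not a test of them. The mRNA is that of C3H10T1/2, a line of mouse mesenchymal stem cells (MSCs) that forms fat cells under hormonal induction, and the question was which genes depend on KDM4D, NFIB and MLL1 during adipogenesis. KDM4D is a histone demethylase, NFIB a transcription factor and MLL1 a histone H3K4 methyltransferase encoded by *Kmt2a*. The 4 lines were shControl (genotype label WT) and the stable knockdown lines shKDM4D, shNFIB and shMLL1, each with 1 library from day 0 of adipogenic differentiation and 1 from day 5, which makes 8 libraries with no replicate. Every library carries the same treatment label. Day 0 was a post-confluent culture before induction, and day 5 followed induction with insulin, dexamethasone and isobutylmethylxanthine. Dexamethasone is a glucocorticoid, and glucocorticoids are known to raise several acute-phase genes, so the day 5 culture differed from day 0 in hormone history as well as in differentiation, and these cannot be told apart. The stable lines were made from drug-resistant clones, so a difference between lines cannot be told apart from a difference between clones.

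The acute-phase response is the shift in plasma proteins that follows infection or injury. Interleukin-6 acts through the receptor subunit gp130 and STAT3, interleukin-1 acts through NF-κB, and both converge with C/EBPβ and C/EBPδ on the promoters of these genes. The liver makes most of the circulating protein, but fat tissue also secretes haptoglobin, lipocalin-2, orosomucoid, serum amyloid A3 and complement C3.

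The mapped depth recovered from the files ran from 15800000 to 38200000 reads, and both shMLL1 libraries were the deepest. Reads of *Nfib* and *Kmt2a* were lower in the lines that target them at both days, while *Kdm4d* had 13 reads in shControl cells and 4 reads in shKDM4D cells at day 5 and too few at day 0 to compare. With 1 library in each group there is no estimate of the spread between cultures. The 95% intervals given with ratios and levels are exact and cover counting error only, which takes no account of PCR duplicates. "Rose", "fell", "higher" and "lower" refer to the RPKM values (reads divided by exon length and by the mapped reads of the library) of these libraries. A gene was counted as changed when its RPKM differed by more than 2-fold, among the 11513 genes that exceeded an RPKM of 1 somewhere in the 8 libraries. *Hpx*, whose highest RPKM was 0.863, was the 1 member below that minimum, and the other 9 were above it.

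The label of fat cells was checked against 7 adipocyte markers. Their summed RPKM rose in shControl cells from 10.95 to 777, and at day 5 it was 38.6 (shKDM4D), 12.01 (shNFIB) and 12.3 (shMLL1), with 7 of 7 markers more than 2-fold below shControl cells in each knockdown line. The 9 MSC and fibroblast markers summed to between 1986 and 2619 RPKM in every library, most of it *Vim* and *Col1a1*, and single markers differed between lines. At day 5 *Ly6a*, a surface antigen of mouse stromal cells, was at 136 RPKM in shControl cells, 2.51-fold higher in shNFIB and 6.83-fold higher in shMLL1 cells, and *Pdgfra*, a growth factor receptor of these cells, was 2.21-fold lower in shMLL1 cells. *Thy1*, an MSC surface marker, was lower than in shControl cells in all 3 knockdown lines, with a day 0 level of 25.01 RPKM (shControl) and 11.8 RPKM (shMLL1) but 0.0171 in shKDM4D and 0.0179 in shNFIB cells. The 7 hepatocyte markers summed to at most 0.281 RPKM in the shControl, shKDM4D and shNFIB libraries, where 3 to 7 of the 7 were at 0. In shMLL1 cells they summed to 0.713 at day 0 and 1.36 at day 5, with none at 0 and *Alb*, the albumin gene, at 0.447 and 0.650. Macrophage markers summed to between 4.85 and 9.77, most of it *Cd14*, while *Adgre1* was at 0 in 7 libraries. Neutrophil markers reached at most 1.88, epithelial markers 1.81 and endothelial markers 1.72. The part of these cells and markers in the results below was not tested, and in bulk samples fewer cells of a type and less RNA per cell cannot be told apart.

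The 3 orosomucoid genes lie side by side on chromosome 4 of GRCm38, all on the plus strand and protein coding. *Orm1* (ENSMUSG00000039196) spans chr4:63344560-63348163, *Orm3* (ENSMUSG00000028359) spans chr4:63356162-63359511 and *Orm2* (ENSMUSG00000061540) spans chr4:63362449-63365878. They encode α1-acid glycoproteins, plasma lipocalins that carry small hydrophobic molecules. Their mRNAs are close in sequence, with 89.9% identity in the coding sequence between *Orm1* and *Orm2*, 86.4% between *Orm1* and *Orm3* and 88.3% between *Orm2* and *Orm3*. The first 60 bases of the coding sequence, from the GENCODE M21 transcripts, are shown because the counts below depend on telling these mRNAs apart. Capitals mark the 12 positions at which the 3 genes are not all alike.
Orm1: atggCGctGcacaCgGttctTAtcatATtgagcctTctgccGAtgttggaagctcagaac
Orm2: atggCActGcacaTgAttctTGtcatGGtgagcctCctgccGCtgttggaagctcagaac
Orm3: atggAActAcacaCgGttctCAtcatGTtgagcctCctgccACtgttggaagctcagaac
Over the transcript, of 775 bases in *Orm1* and *Orm2* and 773 in *Orm3*, 79.6% of the 50-base windows of *Orm1*, 78.2% of those of *Orm2* and 96.4% of those of *Orm3* occur in no other *Orm* transcript. How the authors' counting placed reads that match more than one of them is not given in the sources used here, so the split between *Orm1* and *Orm2* is less certain than that of *Orm3*.

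Promoter windows from RefSeq on GRCm38.p6, running from 250 bases before to 50 bases after each annotated start, were given for 8 of the 10 members (*Cp* has 2 starts). C/EBP proteins, which drive both adipogenesis and acute-phase genes, bind palindromic sites. The C/EBP letters TTGCNNAA (N is any base), read on both strands like all letters below, were found in the windows of 7 of the 8 genes, and the exception was *Lrg1*. Counted by window the letters were found in 7 of 9, since the window of the upstream start of *Cp* holds none. They occur in 10.8% of all 32851 windows of this length. The windows of *Orm2*, *Orm3*, *C3* and *Saa3* are shown up to the base before the earlier of the RefSeq and GENCODE starts. For *Saa3* that is the GENCODE start, so its sequence ends short of the RefSeq start from which positions are counted below. *C3* carried most of the reads, *Orm2* and *Orm3* are neighbours that differ in shMLL1 cells, and *Saa3* was the member highest in shNFIB cells. They lie at chr4:63362199-63362448 (plus strand), chr4:63355908-63356157 (plus strand), chr17:57228137-57228386 (minus strand) and chr7:46715701-46715926 (minus strand). Each is written 5′ to 3′ along its gene, and capitals mark the C/EBP letters.
Orm2: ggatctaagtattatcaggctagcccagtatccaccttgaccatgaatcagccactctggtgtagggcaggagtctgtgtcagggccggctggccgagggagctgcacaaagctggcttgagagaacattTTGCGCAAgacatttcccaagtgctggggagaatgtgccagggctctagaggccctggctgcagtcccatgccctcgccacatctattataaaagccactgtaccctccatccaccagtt
Orm3: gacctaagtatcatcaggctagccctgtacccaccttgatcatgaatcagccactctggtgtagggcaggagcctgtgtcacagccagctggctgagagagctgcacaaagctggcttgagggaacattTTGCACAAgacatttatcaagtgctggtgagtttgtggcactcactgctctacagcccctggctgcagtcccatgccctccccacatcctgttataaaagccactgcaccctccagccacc
C3: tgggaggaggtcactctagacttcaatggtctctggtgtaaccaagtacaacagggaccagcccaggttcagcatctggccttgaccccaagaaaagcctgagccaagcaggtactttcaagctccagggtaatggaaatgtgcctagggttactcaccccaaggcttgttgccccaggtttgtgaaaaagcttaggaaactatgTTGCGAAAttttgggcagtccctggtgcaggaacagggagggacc
Saa3: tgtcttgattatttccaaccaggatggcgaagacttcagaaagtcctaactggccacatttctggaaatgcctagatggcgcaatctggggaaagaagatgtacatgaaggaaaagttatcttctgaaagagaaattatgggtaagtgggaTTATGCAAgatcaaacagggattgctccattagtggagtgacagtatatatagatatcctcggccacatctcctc
Counted from the RefSeq transcript start, the match begins at base -120 in *Orm2*, -121 in *Orm3*, -45 in *C3* and -99 in *Saa3*. It begins at -70 from the downstream start of *Cp*, at -216 in *Lcn2* and at -200 in *Hpx*. The NF-κB letters (GGGA, 3 further bases and CCC) were found in *C3* alone, against 5.55% of all windows. The STAT letters TTCNNNGAA were found in none of the 8 genes (8.30% of all windows), and neither were the nuclear factor I letters (TTGGC and GCCAA, 5 bases apart, 0.0365%) nor the PPAR-RXR letters (AGGTCA repeated after 1 base, 0.0396%). The last 2 occur in only 12 and 13 of the 32851 windows, so their absence from 8 genes carries no information. Single parts of these paired letters were not searched. The *Orm2* and *Orm3* windows were 86.6% identical, and the C/EBP letters lay at almost the same place in both. A match is a description of letters and says nothing about binding in these cells.

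**Figure D1:**
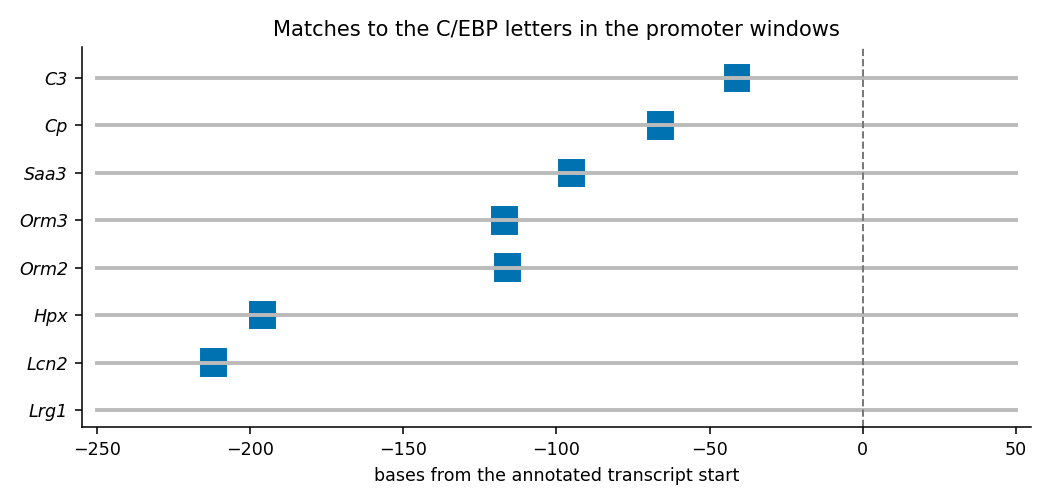
Position of the C/EBP letters (blue blocks) in the promoter windows of the 8 members with a RefSeq window, in bases from the annotated transcript start (dashed line). The blocks lie between base -216 (*Lcn2*) and base -45 (*C3*), and *Lrg1* has none. For *Cp* the window of the downstream start is drawn, and the window of its upstream start, not drawn, holds no such letters.

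In shControl cells the 10 genes together rose from 0.0427% to 0.591% of the mapped reads between the days. At day 5 they took 0.413% (shKDM4D), 0.282% (shNFIB) and 0.510% (shMLL1). *C3* made up 77.1% to 93.8% of these reads at day 5, so the summed share follows *C3* rather than the other members. By RPKM *C3* ranked 33 among all genes in shControl cells at day 5 and between 40 and 79 in the knockdown lines.

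From day 0 to day 5, the same 9 of 10 members rose by more than 2-fold in each of the 4 lines and none fell, and *Hpx* was not counted because of its low level. The interval of the change lay above 0 for 9 of the 9 in shControl and shMLL1 cells, for 8 in shKDM4D cells (not *Saa3*) and for 6 in shNFIB cells, where *Orm2* and *Orm3* had 3 reads against none and *Lrg1* had 4 against 1. With 1 added to each RPKM 9 rose in shControl cells against 7 (shKDM4D), 6 (shNFIB) and 8 (shMLL1). Over all expressed genes the share that rose was 13.0% in shControl cells against 12.8% (shKDM4D), 12.6% (shNFIB) and 20.4% (shMLL1), and the share that fell was 8.56%, 8.44%, 4.96% and 6.89%. The median change of the 10 members, on the log2(RPKM + 0.1) scale, was 3.99 in shControl cells against 3.15 (shKDM4D), 2.10 (shNFIB) and 4.44 (shMLL1), against medians over all expressed genes of 0.03, 0.03, 0.09 and 0.17. The members were selected on these values, so nothing further is read from the counts.

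**Figure D2:**
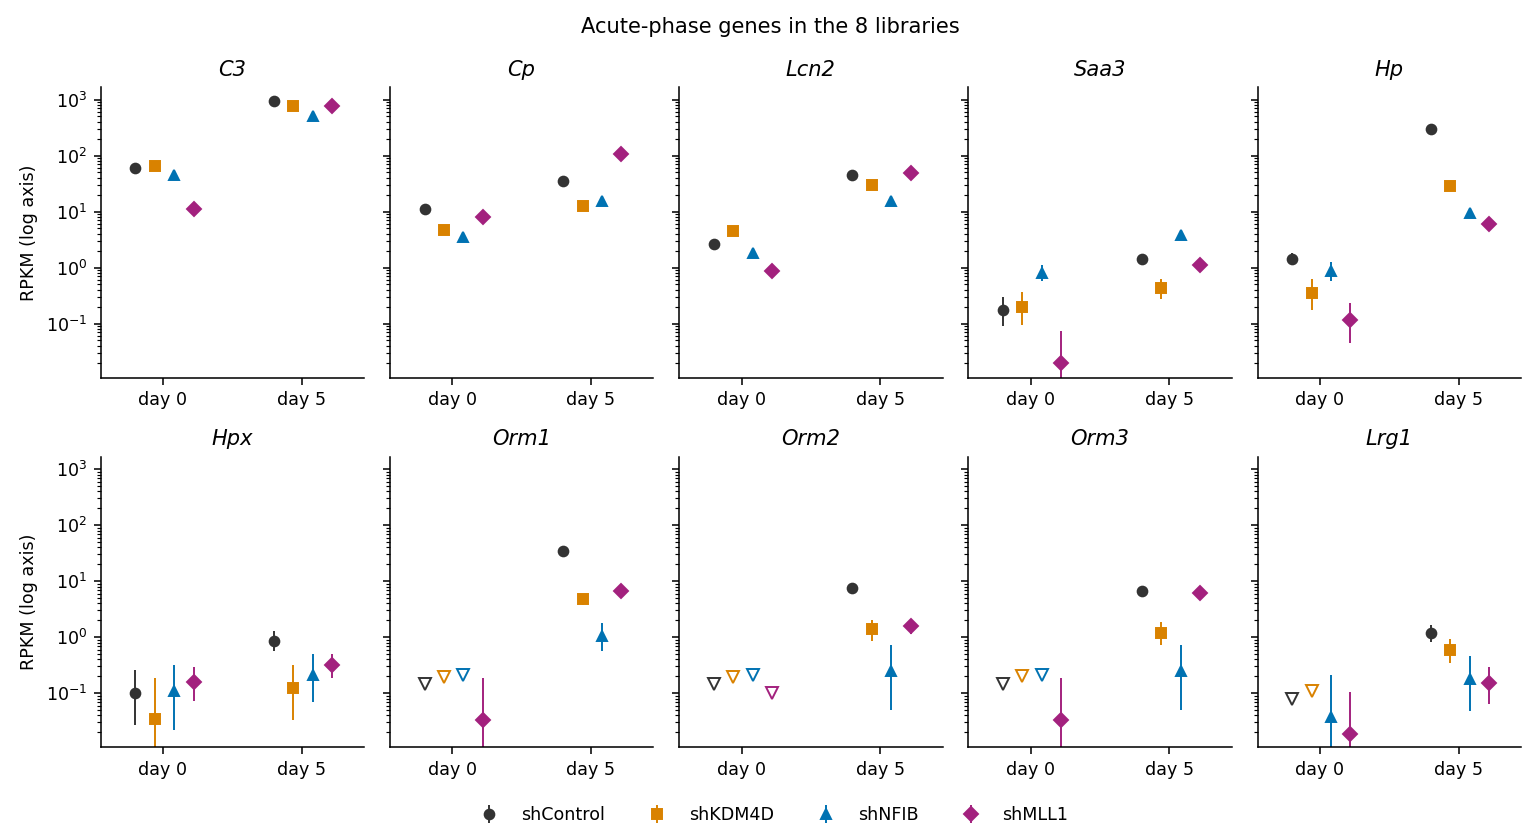
RPKM of each member in the 8 libraries (log axis), at day 0 and day 5, with exact 95% counting intervals where they are wider than the symbol, cut at the lower edge of the axis. Open triangles mark libraries with no read, at the RPKM that 3 reads would give. All members with reads at both days were higher at day 5 in every line, and *Hp* and the *Orm* genes separate the lines more widely at day 5 than *C3* does.

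At day 5 *Hp*, *Orm1* and *Orm2* were more than 2-fold below shControl cells in all 3 knockdown lines. *Lrg1* and *C3* were also below in each line, but not past 2-fold in every one, and *Hpx*, which was not counted, was below in each. In shKDM4D cells 6 of 10 members were more than 2-fold lower at day 5 (*Hp*, *Orm1*, *Orm2*, *Orm3*, *Saa3* and *Cp*) and none higher, where 4.57% and 1.88% of all expressed genes were lower and higher. In shNFIB cells 7 were lower (*Hp*, *Lcn2*, *Orm1*, *Orm2*, *Orm3*, *Lrg1* and *Cp*) and 1 higher (*Saa3*), against 5.67% and 5.54%. In shMLL1 cells 4 were lower (*Hp*, *Orm1*, *Orm2* and *Lrg1*) and 1 higher (*Cp*), against 4.02% and 5.25%. The 3 comparisons share the shControl library, so a high or low value there moves all of them. The median log2 ratio of the members was -1.81 (shKDM4D), -1.91 (shNFIB) and -0.77 (shMLL1) with 0.1 added. Without *Hpx*, over the 9 members above the minimum, it was -1.52, -2.19 and -0.32, and over all expressed genes it was 0.01, 0.09 and 0.07.

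At day 0 the counts rested in part on single reads. In shKDM4D cells 2 members were lower (*Hp* and *Cp*) and none higher, where 4.26% and 1.98% of all expressed genes were. In shNFIB cells 1 was lower (*Cp*) and 2 were higher (*Saa3* and *Lrg1*), against 6.05% and 2.95%. In shMLL1 cells 4 were lower (*Hp*, *Lcn2*, *Saa3* and *C3*) and 3 higher (*Orm1*, *Orm3* and *Lrg1*), against 7.43% and 1.67%. Each of the 3 higher in shMLL1 cells, and *Lrg1* in shNFIB cells, had 1 read against none in shControl cells, so these 4 counts carry no weight. The median log2 ratio of the 10 members at day 0, with 0.1 added, was -0.23 in shMLL1 cells, or -0.46 over the 9 above the minimum, where that of all expressed genes was -0.07.

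**Figure D3:**
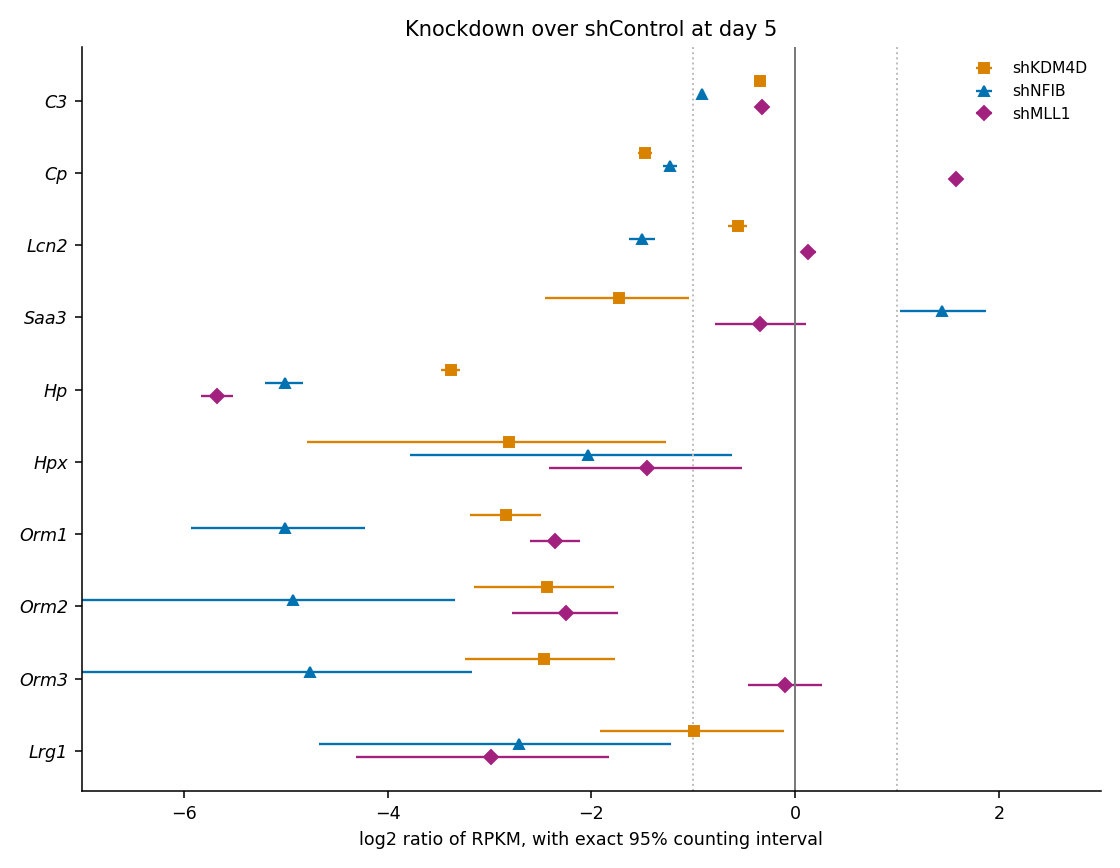
Log2 ratio of RPKM of each knockdown line to shControl cells at day 5, with exact 95% counting intervals, cut at the edge of the axis. Dotted lines mark a 2-fold difference. *Hp* lies at -3.38, -5.01 and -5.67, *Cp* lies on opposite sides of 0 in shMLL1 cells and in the other lines, and *Saa3* is above 0 in shNFIB cells alone.

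Haptoglobin (*Hp*, ENSMUSG00000031722, chr8:109575128-109579172, minus strand) binds free hemoglobin and is a secreted product of differentiated fat cells. At day 0 its RPKM was 1.43 in shControl cells against 0.351 (shKDM4D), 0.867 (shNFIB) and 0.114 (shMLL1), from 61, 11, 26 and 7 reads. At day 5 it was 304 in shControl cells against 29.2 (shKDM4D), 9.43 (shNFIB) and 5.96 (shMLL1). The gene rose in all 4 lines, but the lines stood far apart at day 5, with shControl cells highest and shMLL1 cells lowest. The change in shControl cells was 213-fold, against 83.2-fold (shKDM4D), 10.9-fold (shNFIB) and 52.2-fold (shMLL1). *Hp* was 10.4-fold lower than in shControl cells in shKDM4D, 32.2-fold lower in shNFIB and 51.0-fold lower in shMLL1 cells, and each neighbour in this order was separated from the next by more than counting error (log2 ratios 3.38, 1.63 and 0.66, the last with an interval from 0.42 to 0.90). *Hp* and the 7 adipocyte markers were lower together in the 3 knockdown lines. In each of these lines 5 of the 7 were further below shControl cells than *Hp*, among them *Adipoq*, which encodes adiponectin, at an RPKM of 258 in shControl cells against 9.01 (shKDM4D), 0.229 (shNFIB) and 0.570 (shMLL1), while *Pparg* and *Cebpa* were 2.59-fold to 5.80-fold below. Over the 8 libraries, the genes whose log2 pattern was most like that of *Hp* among 7935 searched were *Fam214a*, *Atg10* and *Phka2*, with Pearson's r between 0.978 and 0.984 (n = 8 libraries, which share the split by day).

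Hemopexin (*Hpx*, ENSMUSG00000030895, chr7:105591613-105600137, minus strand) takes up free heme and was close to undetected. It had 4, 1, 3 and 9 reads at day 0 and 25, 4, 5 and 18 reads at day 5 in shControl, shKDM4D, shNFIB and shMLL1 cells. The day 5 RPKM was 0.863, 0.123, 0.211 and 0.315. In shControl cells the log2 change was 3.11 (1.57 to 5.09), while in the knockdown lines the interval of the change included 0. Relative to shControl cells at day 5 the ratio was -2.81 (-4.79 to -1.27) in shKDM4D, -2.03 (-3.78 to -0.62) in shNFIB and -1.45 (-2.41 to -0.52) in shMLL1 cells, and the knockdown lines could not be told from each other at this depth.

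The orosomucoid genes were nearly silent at day 0. No read of *Orm1*, *Orm2* or *Orm3* was found in shControl, shKDM4D or shNFIB cells, and shMLL1 cells had 1 read of *Orm1* and 1 of *Orm3*. At day 5 *Orm1* had an RPKM of 34.1 in shControl cells against 4.78 (shKDM4D), 1.06 (shNFIB) and 6.67 (shMLL1), from 511, 80, 13 and 197 reads. Against the 3 reads that a count of 0 allows, this was at least 235-fold higher than at day 0 in shControl, at least 24.1-fold in shKDM4D and at least 5.11-fold in shNFIB cells, leaving out the counting error of the day 5 reads. Relative to shControl cells *Orm1* was 7.14-fold lower in shKDM4D, 32.2-fold lower in shNFIB and 5.12-fold lower in shMLL1 cells. In the order shControl, shMLL1, shKDM4D and shNFIB the first and the last step were beyond counting error. The step between shMLL1 and shKDM4D cells was narrow (log2 ratio 0.48, interval 0.10 to 0.87) and shrank to 0.083 as a ratio to *Gapdh*, so these lines are not put in order.

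*Orm2* had 111, 23, 3 and 46 reads at day 5, an RPKM of 7.41 in shControl cells against 1.37 (shKDM4D), 0.244 (shNFIB) and 1.56 (shMLL1). Like *Orm1* it was highest in shControl and lowest in shNFIB cells, and shMLL1 and shKDM4D cells were not separated (log2 ratio 0.18, interval -0.57 to 0.97). Against 3 reads at day 0 the rise was at least 51.0-fold in shControl, 6.93-fold in shKDM4D and 15.4-fold in shMLL1 cells. These folds too leave out the counting error of the day 5 reads. No fold is given for shNFIB cells, where 3 reads stand against none.

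*Orm3* followed another order. Its RPKM at day 5 was 6.63 in shControl cells against 1.197 (shKDM4D), 0.245 (shNFIB) and 6.18 (shMLL1), from 99, 20, 3 and 182 reads. In shKDM4D and shNFIB cells it was below shControl cells like its neighbours, 5.54-fold lower and 27.05-fold lower. In shMLL1 cells the log2 ratio was -0.10 with an interval from -0.46 to 0.27, so a difference from shControl cells was not detectable at this depth, and the same line was 5.16-fold above shKDM4D cells.

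The split of the family reads sets *Orm3* apart from its neighbours in shMLL1 cells without a scale between libraries. A share says nothing about the level of *Orm3* itself. *Orm3* held 13.7% of the 721 *Orm* reads in shControl cells at day 5 (exact interval 11.3 to 16.5), 16.3% of 123 in shKDM4D (10.2 to 24.0) and 15.8% of 19 in shNFIB cells (3.38 to 39.6). In shMLL1 cells it held 42.8% of 425 reads (38.1 to 47.7), outside the intervals of shControl and shKDM4D cells. The share of *Orm1* was 70.9% in shControl and 46.4% in shMLL1 cells, and that of *Orm2* was 15.4% and 10.8%. The shMLL1 libraries are also those with reads of all 7 hepatocyte markers, at a summed RPKM of 1.36 at day 5 where *Orm3* alone had 6.18, and the part of those markers in the split was not tested.

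**Figure D4:**
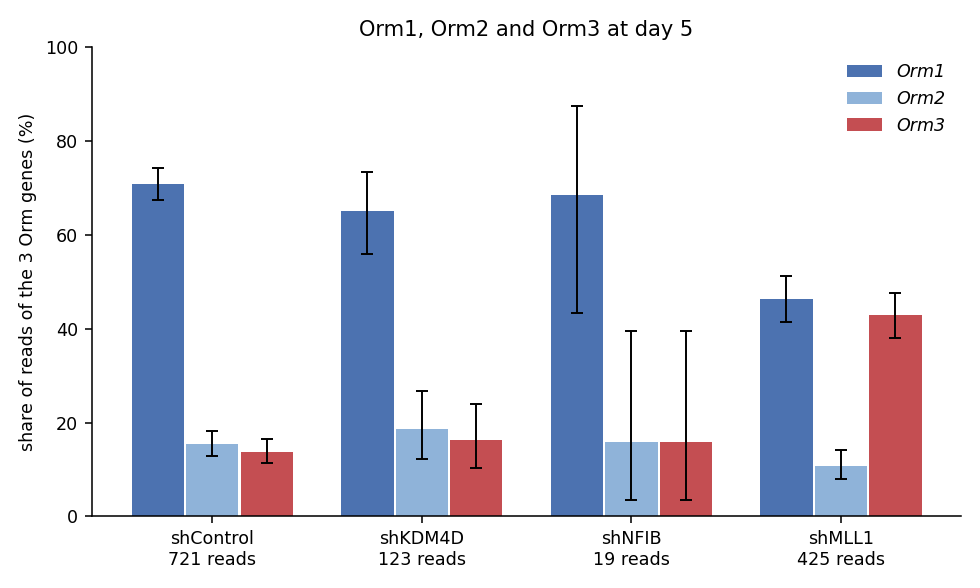
Share of the reads of the 3 *Orm* genes (percent) held by each gene at day 5, with exact 95% binomial intervals and the number of family reads below each line. *Orm1* holds 65.0% to 70.9% in shControl, shKDM4D and shNFIB cells. In shMLL1 cells *Orm1* holds 46.4% and *Orm3* 42.8%.

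By Pearson correlation of log2 values over the 8 libraries, *Orm1* and *Orm2* were most like *Cyp2f2* (r = 0.995 and 0.998) and *Agt* (r = 0.993 and 0.994), the gene of angiotensinogen, another secreted protein of liver and fat. *Orm3* was most like *Errfi1* (r = 0.986), *Jcad* (r = 0.985) and *Agt* (r = 0.985). The 8 libraries share the split by day, so r is given as a description, and how many genes reach such values was not counted.

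Lipocalin-2 (*Lcn2*, ENSMUSG00000026822, chr2:32384633-32388252, minus strand) binds bacterial siderophores and so withholds iron from microbes. Its RPKM at day 0 was 2.68 in shControl cells against 4.47 (shKDM4D), 1.82 (shNFIB) and 0.878 (shMLL1). At day 5 it was 44.3, 29.9, 15.6 and 48.4 in the same order. The shMLL1 line thus went from the lowest *Lcn2* level of the 4 lines to a level close to that of shControl cells, a 55.1-fold rise against 16.6-fold in shControl, 6.70-fold in shKDM4D and 8.59-fold in shNFIB cells. Between shMLL1 and shControl cells the log2 ratio was 0.13 (0.06 to 0.20) by RPKM but -0.23 as a ratio to *Gapdh*, so no direction is given for it. *Lcn2* in shNFIB cells was 2.84-fold below shControl cells, and in shKDM4D cells it was 1.48-fold below. Neutrophil granules also carry lipocalin-2, and in the day 5 libraries with the highest *Lcn2* the neutrophil markers summed to 1.88 RPKM (shControl) and 0.0618 RPKM (shMLL1). Most of the 1.88 was *S100a8* at 1.86, and the part of neutrophils in the *Lcn2* level was not tested.

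Serum amyloid A3 (*Saa3*, ENSMUSG00000040026, chr7:46711998-46715700, minus strand) is the mouse serum amyloid A made outside the liver, in fat cells and macrophages among others. Its RPKM at day 0 was 0.173 in shControl cells against 0.196 (shKDM4D), 0.802 (shNFIB) and 0.0201 (shMLL1), from 12, 10, 39 and 2 reads. At day 5 it was 1.41, 0.426, 3.83 and 1.11, from 71, 24, 158 and 110 reads. *Saa3* was the 1 member that was highest in shNFIB cells at both days, 4.64-fold above shControl cells at day 0 and 2.72-fold at day 5. At day 5 shControl and shMLL1 cells were not separated (log2 ratio 0.35, interval -0.10 to 0.79), and shKDM4D cells were 3.31-fold below shControl cells. The rise in shKDM4D cells from day 0 was 2.17-fold, with a log2 interval whose lower end lay at 0, and in shMLL1 cells the 55.1-fold rise rests on 2 reads at day 0 (log2 interval 3.90 to 8.85). Of the 8 macrophage markers, 2 were over the minimum and both differed between shNFIB and shControl cells at day 5, in opposite directions. *Cd14* was at 6.38 against 3.06 and *Cd68* at 0.502 against 1.23. The 8 markers summed to 7.93 RPKM in shNFIB and 4.85 in shControl cells, and their part in the *Saa3* level was not tested.

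Leucine-rich α2-glycoprotein 1 (*Lrg1*, ENSMUSG00000037095, chr17:56119678-56122001, minus strand) modifies TGF-β signalling in endothelium and is released by liver, fat cells and neutrophils. It had no read in shControl and shKDM4D cells at day 0 and 1 read in each of the other lines. At day 5 it had 32, 18, 4 and 8 reads, an RPKM of 1.18 in shControl cells against 0.591 (shKDM4D), 0.179 (shNFIB) and 0.149 (shMLL1). Relative to shControl cells it was 7.89-fold lower in shMLL1 cells (log2 interval -4.31 to -1.83) and 6.56-fold lower in shNFIB cells (-4.67 to -1.22). In shKDM4D cells it was 1.99-fold lower, just short of the 2-fold limit. The shNFIB and shMLL1 lines were not separated (log2 ratio 0.27, interval -1.92 to 2.17).

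Ceruloplasmin (*Cp*, ENSMUSG00000003617, chr3:19957054-20009145, plus strand) is the copper-carrying ferroxidase of plasma. Its RPKM at day 0 was 11.1 in shControl cells against 4.68 (shKDM4D), 3.52 (shNFIB) and 8.02 (shMLL1), and at day 5 it was 35.6, 12.8, 15.2 and 106. The shKDM4D and shNFIB lines were below shControl cells at both days, by 2.36-fold and 3.15-fold at day 0 and by 2.78-fold and 2.34-fold at day 5. The shMLL1 line crossed from 1.38-fold below shControl cells at day 0 to 2.99-fold above at day 5 (log2 ratio 1.58, interval 1.54 to 1.62). Its rise over the 5 days was 13.3-fold, against 3.22-fold in shControl, 2.74-fold in shKDM4D and 4.32-fold in shNFIB cells. Among 7935 genes the patterns most like that of *Cp* over the 8 libraries were those of *Pebp1*, *Gbp9* and *Gm4951*, with r from 0.982 to 0.989. *Gbp9* is a guanylate-binding protein gene, a family known to respond to interferon.

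Complement C3 (*C3*, ENSMUSG00000024164, chr17:57203970-57228136, minus strand) is the protein on which all complement pathways converge, and its cleavage yields the acylation-stimulating fragment known from fat. Its RPKM at day 0 was 60.5 in shControl cells against 66.0 (shKDM4D), 44.99 (shNFIB) and 11.1 (shMLL1). At day 5 it was 956, 753, 507 and 764. At day 0 the shMLL1 line stood apart, 5.44-fold below shControl cells, and at day 5 no line was as much as 2-fold from shControl cells, with differences of 1.27-fold, 1.89-fold and 1.25-fold. The rise was 15.8-fold in shControl cells against 11.4-fold (shKDM4D), 11.3-fold (shNFIB) and 68.8-fold (shMLL1). The day 0 ratios of shKDM4D (log2 0.13) and shNFIB cells (-0.43) to shControl cells changed sign as ratios to *Gapdh* (-0.27 and 0.21), and no direction is given for them. *C3* was high at day 5 in lines whose adipocyte markers summed to 12.01 and 12.3 RPKM against 777 in shControl cells. The genes most like it over the 8 libraries were *Atraid*, *Hddc3* and *Itm2c*, with r from 0.996 to 0.997.

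**Figure D5:**
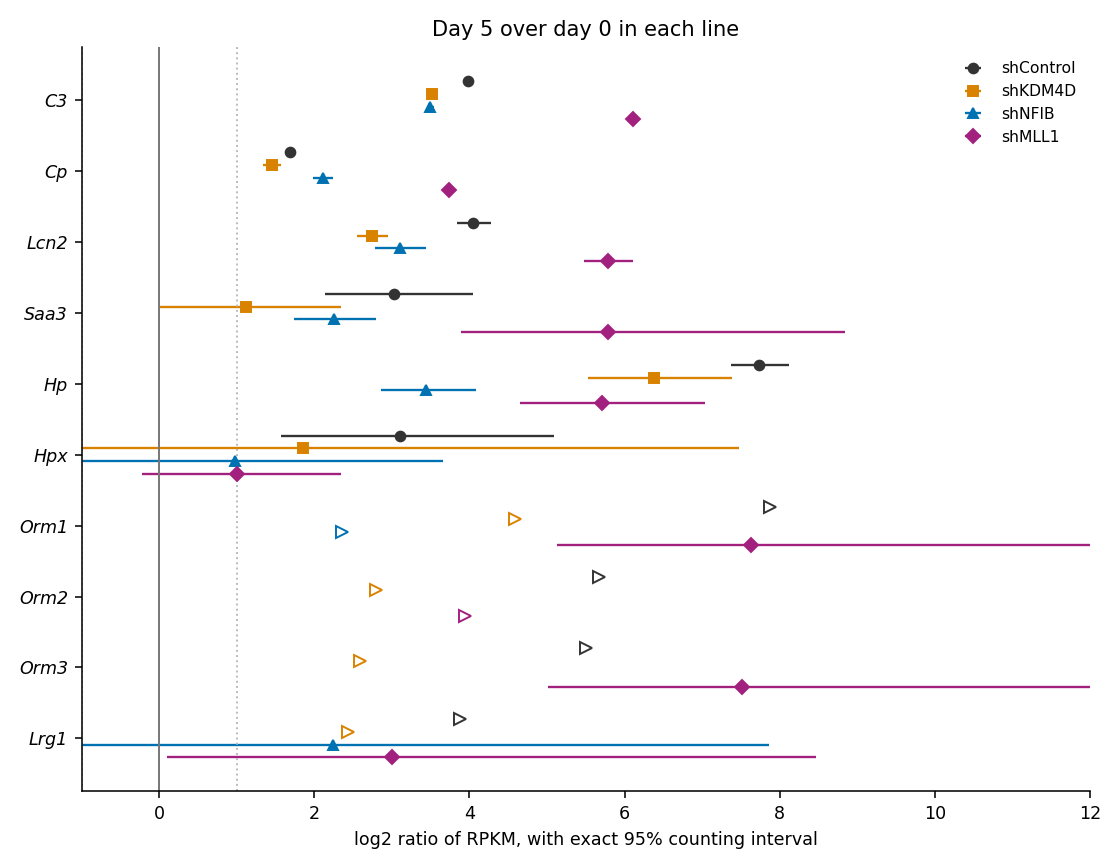
Log2 ratio of RPKM at day 5 to day 0 for each member and line, with exact 95% counting intervals, cut at the edges of the axis. Open triangles are lower bounds set against 3 reads where day 0 had none, and they leave out the counting error of the day 5 reads. *Orm2* and *Orm3* in shNFIB cells have no symbol because 3 reads stand against none. The dotted line marks a 2-fold rise. In shMLL1 cells *C3*, *Cp*, *Lcn2* and *Saa3* lie to the right of the other lines, while *Hp* is farthest right in shControl cells.

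Of the 6 members with reads in all 8 libraries, *C3*, *Cp*, *Lcn2* and *Saa3* had their largest ratio of day 5 to day 0 in shMLL1 cells, and in 3 of them (*C3*, *Lcn2* and *Saa3*) the day 0 level was the lowest of the 4 lines. The interval of the change did not overlap that of any other line for *C3*, *Cp* and *Lcn2*, and for *Saa3* it overlapped that of shControl cells (3.90 to 8.85 against 2.13 to 4.05). *Hp* was the opposite case, with a log2 change of 7.74 (7.37 to 8.12) in shControl cells and 5.71 (4.65 to 7.03) in shMLL1 cells.

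Other acute-phase genes were taken from a list of 35, of which 12 were over the minimum. Of the 12, 7 rose in shControl and shKDM4D cells, 8 in the shNFIB line and 10 in the shMLL1 line, and 1 fell in each line. Over all expressed genes 13.0% (shControl), 12.8% (shKDM4D), 12.6% (shNFIB) and 20.4% (shMLL1) rose. The shares that fell were 8.56%, 8.44%, 4.96% and 6.89%. At day 5 the list had 4 genes below shControl cells and none above in shKDM4D, 5 below and 3 above in shNFIB, and 2 below and 3 above in shMLL1 cells. Of all expressed genes 4.57%, 5.67% and 4.02% were below in these lines, and 1.88%, 5.54% and 5.25% above. Over all 35 genes the median log2 ratio at day 5, with 0.1 added, was 0 (shKDM4D), -0.18 (shNFIB) and 0.00 (shMLL1). Only 12 of the 35 were over the minimum, and genes near 0 in both libraries hold this median near 0. It is therefore not read as a result about the 12. The protease inhibitor gene *Serpina3n* had a day 5 RPKM of 15.3 in shControl cells against 2.85 (shKDM4D), 6.58 (shNFIB) and 33.8 (shMLL1), an order that puts shMLL1 cells first as for *Cp*. *Serpina3n* has close relatives in its gene cluster, so its reads may be shared with them. *Steap4*, a metalloreductase gene of fat, was at 12.8, 1.88, 2.34 and 1.505, low in the 3 knockdown lines like *Hp*. *Il1rn*, the interleukin-1 receptor antagonist, was at 602, 724, 210 and 237.

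Of 29 complement genes other than *C3*, 13 were over the minimum, and 11 rose in shControl, 10 (shKDM4D), 10 (shNFIB) and 11 (shMLL1), with none falling in any line by RPKM. The shares of all expressed genes that rose were 13.0% (shControl), 12.8% (shKDM4D), 12.6% (shNFIB) and 20.4% (shMLL1). Over all 29 the median change with 0.1 added was 0.59, 0, 0.12 and 0.77 in that order of lines, and the median ratio at day 5 was 0 in each knockdown line. Only 13 of the 29 were over the minimum, and genes near 0 in both libraries pull these medians toward 0. They are therefore not read as a result about the 13. At day 5 the genes below and above shControl cells were 3 and 1 in shKDM4D, 3 and 1 in shNFIB, and 2 and 1 in shMLL1 cells. Of all expressed genes 4.57%, 5.67% and 4.02% were below in these lines, and 1.88%, 5.54% and 5.25% above. Complement factor D (*Cfd*, adipsin), the protease that starts the alternative pathway and a classic fat cell product, had 973 reads at day 5 in shControl cells, where shKDM4D cells had 10, shNFIB cells 1 and shMLL1 cells 7. Its partner factor B (*Cfb*) had an RPKM of 3.33 in shControl cells against 1.10 (shKDM4D), 7.999 (shNFIB) and 24.6 (shMLL1). *C3*, *Cfb* and *Cfd* are the core of the same alternative pathway. At day 5 *Cfb* was highest in shMLL1 cells, while *C3* and *Cfd* were highest in shControl cells. *C3* was lowest in shNFIB cells. The *Cfd* reads of the knockdown lines, from libraries of unequal depth, were too few to put those lines in order. *C4b*, the classical pathway component, was at 10.5, 14.5, 6.35 and 17.6, and *Clu*, a fluid-phase inhibitor of complement, at 141, 175, 65.5 and 54.5.

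The upstream signals were described in the same way. Of 21 cytokines and receptors, 15 were over the minimum, and at day 5 none differed by more than 2-fold in shKDM4D cells, 1 was above and 1 below in shNFIB cells (*Il6* and *Il6ra*), and 1 was above and 1 below in shMLL1 cells (*Il6* and *Il6st*). Of all expressed genes 1.88%, 5.54% and 5.25% were above in these lines, and 4.57%, 5.67% and 4.02% below. At day 0 the list had 3 genes above shControl cells and none below in shKDM4D, where 1.98% and 4.26% of all expressed genes were. In shNFIB cells 1 was above and 1 below (2.95% and 6.05%), and in shMLL1 cells 1 was above and 2 below (1.67% and 7.43%). *Il6* was among those above in each line. Counts this small are not read as a result about the list. *Il6* itself was low at day 5, at an RPKM of 0.0852 in shControl cells against 0.152 (shKDM4D), 1.56 (shNFIB) and 0.702 (shMLL1), from 4, 8, 60 and 65 reads. The median ratio of this list at day 5, with 0.1 added, was 0.04, -0.03 and 0.09 in the 3 knockdown lines. *Il6st*, which encodes gp130, was at 51.8, 54.9, 37.1 and 25.1. Of 24 transcription factors and feedback genes, 22 were over the minimum, with median ratios of 0.11, 0.02 and -0.04. At day 5, of the 22, 2 were lower and none higher in shKDM4D cells, 2 lower and 2 higher in shNFIB cells, and 2 lower and 1 higher in shMLL1 cells. The shares over all expressed genes are those given for the cytokine list at day 5, and these counts are likewise small. *Cebpa* and *Pparg*, the adipogenic regulators, were below shControl cells by more than 2-fold in all 3 knockdown lines, *Cebpa* at 14.01, 5.42, 3.66 and 2.42 and *Pparg* at 21.7, 8.21, 7.48 and 7.22. At day 5 *Cebpb* (49.3, 65.9, 39.5 and 48.7) and *Cebpd* (48.1, 41.4, 47.8 and 45.2) were within 2-fold of shControl cells in every line. At day 0 *Cebpd* was more than 2-fold above shControl cells in shNFIB cells. From day 0 to day 5 it rose past 2-fold in shControl and shMLL1 cells but not in shKDM4D and shNFIB cells. *Stat3* was within 2-fold in every line at day 5, at 16.3, 19.1, 15.6 and 15.8.

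Of 20 genes of proteins that take up or act with the members, 6 were over the minimum. None of them differed from shControl cells by more than 2-fold at day 5 in any knockdown line. Of all expressed genes 4.57% (shKDM4D), 5.67% (shNFIB) and 4.02% (shMLL1) were below, and 1.88%, 5.54% and 5.25% above. With 6 genes the count is therefore not read as a result about the list. *Lrp1*, the receptor that clears hemopexin with its heme, had an RPKM of 48.8 in shControl cells against 30.5 (shKDM4D), 26.7 (shNFIB) and 36.9 (shMLL1) at day 5. *Hmox1*, the heme oxygenase that breaks down heme, was at 44.5, 61.2, 34.2 and 41.7. *Tfrc*, the transferrin receptor, fell from day 0 to day 5 in shControl, shKDM4D and shMLL1 cells (17.9 to 6.77, 20.5 to 6.76 and 17.95 to 7.06) and was at 6.90 and 7.52 in shNFIB cells.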

How the data were processed

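RNA-seq was carried out on 8 libraries, 1 for each of 4 lines at 2 days (SMARTer kit, HiSeq sequencing). The RPKM values were deposited by the authors, who mapped the reads to GRCm38/mm10 with CLC Genomics Workbench 11.0.1 and divided gene reads by exon length and mapped reads. The authors' annotation release and their treatment of reads that match several genes are not given in the sources used here. The paper applied an FDR, which 1 library per group does not allow here, and ratios are given without p-values.

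Multiplied by the GENCODE M21 exon length, 96.2% to 96.6% of the RPKM values came out within 0.02 of a whole read, which gave each library's depth and the reads behind each value. Exact Clopper-Pearson 95% intervals of ratios and shares and exact Poisson intervals of levels were computed from these reads with scipy 1.17.1 (Python 3.11.15, numpy 2.4.6, pandas 2.3.3). A count of 0 was set against 3 reads. Of the genes that passed an RPKM of 1 in any library, those past a 2-fold ratio were counted as changed, with no pseudocount, and a gene at 0 in 1 library only counted as changed. Medians used 0.1 added to each RPKM. Sequences were aligned with Biopython 1.88, and the steps were tested on simulated data.

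The 10 members and the gene and marker lists were chosen with earlier results of these data known. In each list the genes named were the 4 with the largest absolute log2 change in shControl cells and the 4 with the largest between any knockdown line and shControl cells at day 5 (0.1 added), together with *Il6st*, *Il6ra*, *Stat3*, the C/EBP genes, *Pparg* and the targeted genes. *Alb*, *Adgre1*, *Vim* and *Col1a1* were named after their values were seen. Alternatives were quantile normalization, median-of-ratios scaling, ratios to *Gapdh*, pseudocounts and other minimums of RPKM.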

Additional observations from a re-analysis of the deposited data

How the results depend on the processing

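No paired analysis was possible because each group holds 1 library, and for the same reason no library could be left out. Of the counts of members recomputed under the alternatives, 153 stayed within 1.5 times and 7 did not, all of them small counts at day 0. With 1 added to each RPKM, the members lower in shKDM4D cells at day 0 went from 2 to 1 and those lower in shMLL1 cells from 4 to 2. The members higher at day 0 in shNFIB cells went from 2 to 1 with a minimum RPKM of 2, to 1 with 0.1 added and to 0 with 1 added, and those higher in shMLL1 cells went from 3 to 0 with 0.1 or 1 added. Of the single ratios of members, 293 stayed within their counting interval, 86 moved outside it and 1 beyond 2-fold changed sign, the change of *Hpx* in shMLL1 cells, which was -0.048 under quantile normalization. As ratios to *Gapdh*, 5 smaller ratios to shControl cells also changed sign, those of *C3* (0.13 to -0.27) and *Saa3* (0.18 to -0.22) in shKDM4D cells and of *C3* (-0.43 to 0.21) and *Lcn2* (-0.56 to 0.08) in shNFIB cells at day 0, and that of *Lcn2* in shMLL1 cells at day 5 (0.13 to -0.23). Of the 86, 40 came from adding 1 to each RPKM and 24 from the ratio to *Gapdh*, which shifted the median of all expressed genes by as much as 0.63 on the log2 scale (shNFIB to shControl cells at day 0). The median change of all expressed genes in shMLL1 cells was 0.17 by RPKM. Depth limits *Hpx*, *Lrg1* and the *Orm* genes in shNFIB cells most, since a few reads carry each value. The causes of these movements were not tested.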
